A study of Mus musculus with 47 samples.

Results

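The genes described here are Parm1, Rnpepl1 and the copines Cpne7, Cpne2, Cpne4, Cpne5 and Cpne6, 7 of the 22800 gene symbols in the table of read counts. Parm1, Cpne7 and Rnpepl1 were chosen because, besides Kit and Sv2c, their level in NPY-positive neurons was higher in auditory cortex (AC) relative to hippocampal area CA3 than that of other genes. The remaining copines were added as a contrast from the same family. The levels in AC and CA3 are therefore a description of genes selected on that contrast, and no test was made between the regions. RNA was taken through the patch pipette from the cytosol of single neurons, so each sample is 1 cell. The cells were NPY-positive neurons of mice aged 3 to 8 weeks in which a green fluorescent protein marks cells that express neuropeptide Y (NPY). The submitters' design text names the mice NPY-EGFP and the paper names the strain NPY-hrGFP. The AC cells lay in the superficial layers of coronal slices and the CA3 cells in stratum lacunosum-moleculare of horizontal slices, so that the slice plane cannot be told apart from the region. Values are given for 10 AC cells, 13 CA3 cells and 3 CA1 cells. The 21 remaining columns of the table are given apart from them. A total of 8 mice was used and no mouse is named for any cell, so the cells of a region count as 1 sample and the SD over cells describes their spread only.

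Parm1 encodes a mucin-like protein that spans the membrane and was named for its response to androgen withdrawal in the prostate. Rnpepl1 encodes a member of the M1 family of zinc aminopeptidases, enzymes that remove single amino acids from the start of peptides. Copines are cytosolic proteins with a pair of C2 domains, which bind phospholipid membranes when calcium rises, and an A domain that binds other proteins. Copine 6 is enriched in the brain, moves to the membrane of dendritic spines during calcium influx.

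The starts of Parm1 and Rnpepl1 are shown because both genes had reads in most AC cells and in few CA3 cells. The windows run from 250 bases before to 50 bases after the RefSeq start on GRCm38.p6, on the plus strand, at chr5:91517450-91517749 for Parm1 and chr1:92910575-92910874 for Rnpepl1. Capitals mark CG steps.
Parm1: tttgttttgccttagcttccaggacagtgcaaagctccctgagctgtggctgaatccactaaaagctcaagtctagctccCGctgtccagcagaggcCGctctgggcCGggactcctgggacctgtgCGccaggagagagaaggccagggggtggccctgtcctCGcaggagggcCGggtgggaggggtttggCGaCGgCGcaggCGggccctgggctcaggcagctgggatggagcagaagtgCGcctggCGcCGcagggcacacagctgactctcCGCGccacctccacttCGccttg
Rnpepl1: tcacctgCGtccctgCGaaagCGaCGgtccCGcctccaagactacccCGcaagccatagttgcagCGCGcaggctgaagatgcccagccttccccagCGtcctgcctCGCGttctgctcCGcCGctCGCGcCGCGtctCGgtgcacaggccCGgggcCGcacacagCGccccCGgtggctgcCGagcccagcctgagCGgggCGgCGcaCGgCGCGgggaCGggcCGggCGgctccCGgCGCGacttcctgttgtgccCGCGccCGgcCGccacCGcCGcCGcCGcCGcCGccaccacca
The Parm1 window holds 16 CG steps and has a GC content of 66%, and the Rnpepl1 window holds 45 CG steps and has a GC content of 76.7%. The median of 32851 promoter windows is 7 CG steps and 52.7% GC. Of these windows, 68.6% hold no more CG steps than that of Parm1 and 98.4% no more than that of Rnpepl1. The motifs TAATTA (a homeodomain core), TTGGCA (a nuclear factor I half-site), TATAAA (the TATA box) and CACGTG (an E-box) were searched on both strands. None of the 4 was found in the windows of Parm1 and Rnpepl1. They occur in 5.29%, 14.1%, 13.6% and 7.15% of all windows. Of the copines, windows of Cpne1, Cpne2, Cpne4, Cpne5, Cpne8 and Cpne9 were at hand, and only the 2 windows of Cpne4 held a motif, the E-box in one and the nuclear factor I half-site in the other.

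Totals of reads on genes ran from 1715012 to 6265431 in the 10 AC cells, from 2229519 to 7949918 in the 13 CA3 cells and from 601781 to 3202430 in the 3 CA1 cells. The median number of detected genes was 5008 in AC, 5704 in CA3 and 4949 in CA1. Levels below are log2(normalized count + 1) with scran size factors, and a difference of at least 1 in the mean level is spoken of as called. CPM scales the reads of a cell or region to a total of 1000000. Reads come from amplified cDNA, so the exact Poisson intervals of summed reads and the exact Clopper-Pearson intervals of shares of cells, both at 95%, cover counting error only. Genes detected in 10 or more of the 23 AC and CA3 cells numbered 5964, of which 15.4% were called higher in AC and 48.1% were called higher in CA3. The median difference of these genes was -0.91, so that a gene at 0 lay above most others. By Npy, Gad1 and Gad2, which had reads in each of the 23 AC and CA3 cells, the cells were NPY interneurons. With Slc32a1, which encodes the vesicular GABA transporter, they summed to 4794 to 26500 CPM in AC and 4376 to 16572 CPM in CA3. Little of this came from Slc32a1, which had 11.3 summed CPM in AC and 27.5 in CA3. It had reads in 17 of the 23 cells and was called higher in CA3, with a difference of -2.31.

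Parm1 (chr5:91517615-91626894, plus strand, GENCODE vM21 on GRCm38) had the largest difference in mean level between the regions of the 7 genes. It had reads in 10 of 10 AC cells (exact interval 69.2 to 100%), from 526 to 4120 with a median of 1174. In CA3 a single cell of 13, N29, had 479 reads, and the other CA3 cells had none (7.69% of cells, exact interval 0.195 to 36.03%). AC cells had a mean level of 10.45 ± 1.03 (SD, n = 10) and CA3 cells one of 0.69 ± 2.47 (SD, n = 13), which differ by 9.76. The level of 8.91 in N29 lay just above the lowest AC level of 8.79, in cell N3X, so the groups overlapped by this 1 cell. Reads summed over cells came to 490 CPM in AC (exact interval 483 to 498) and to 9.80 CPM in CA3 (8.95 to 10.7), a ratio of 50.01. All Parm1 reads of CA3 came from N29, and without this cell AC was at least 7467-fold higher than the level that 3 reads over the reads of the other 12 CA3 cells would give.

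The 3 CA1 cells had 184, 1390 and 1020 reads on Parm1. Their mean level of 10.65 ± 0.64 (SD, n = 3) differed from that of AC by 0.21, less than the spread of either group. Summed reads in CA1 came to 515 CPM (exact interval 496 to 535). CA1 and AC therefore shared the upper place in the order of levels, and CA3 stood 9.97 below CA1 on the log2 scale. Which mice the cells of each region came from is not known.

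Rnpepl1 (chr1:92910783-92924384, plus strand) had reads in 8 of 10 AC cells (exact interval 44.4 to 97.5%). The levels fell into 3 steps. Cells N4, N8, N3X, N43, N46 and N44 had 360, 1131, 1167, 1216, 1466 and 2092 reads, cells N5 and N7 had 15 and 6 reads, and cells N41 and N42 had none. In CA3, N33 had 9 reads, N40 had 2 and N38 had 1, which makes 3 of 13 cells (exact interval 5.04 to 53.8%). Averaged over cells, the level was 6.83 ± 4.45 in AC against 0.41 ± 0.89 in CA3, and the difference was 6.43. The groups overlapped at 0. None of these 13 CA3 cells reached 10 reads, against 7 of 10 AC cells. Summed reads came to 219 CPM in AC (exact interval 214 to 224) and to 0.246 CPM in CA3 (0.127 to 0.429), a ratio of 891. Of the 12 CA3 reads, 75% came from N33, and without this cell the ratio was 3281.

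In CA1, unlike Parm1, Rnpepl1 had 6 reads in cell N6 and none in the other 2 cells. The CA1 level of 1.34 ± 2.32 was lower than that of AC, with a difference of -5.49, and stood 0.93 above that of CA3, the latter less than the SD of CA1. At 1.19 CPM (exact interval 0.437 to 2.59) the summed CA1 reads lay above the 0.246 CPM of CA3 and below the 219 CPM of AC. Of Parm1, Cpne7 and Rnpepl1, the last was the one whose mean CA1 level lay nearer to CA3 than to AC.

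Cpne7 (chr8:123117374-123135182, plus strand) was the copine chosen for its level in AC. Reads were found in 8 of 10 AC cells (exact interval 44.4 to 97.5%), from 331 in N4 to 3275 in N41. The cells without reads were N8 and N42. In CA3, N39 had 1626 reads and N28 had 69, and the other cells had none (2 of 13 cells, exact interval 1.92 to 45.4%). Mean levels of 8.75 ± 4.66 in AC and of 1.22 ± 3.04 in CA3 differed by 7.53. AC cells with reads had levels of at least 9.31, which is just under the 9.33 of N39, so that this CA3 cell lay within the AC range. Summed reads came to 480 CPM in AC (exact interval 473 to 487) and to 34.7 CPM in CA3 (33.1 to 36.4), a ratio of 13.8. Of the CA3 reads, 95.9% came from N39, and without this cell the ratio was 285.

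All 3 CA1 cells had Cpne7 reads, with 20, 1087 and 177. Their mean level of 8.63 ± 1.66 lay 0.12 below that of AC, within the spread of both, and 7.41 above that of CA3. Summed reads in CA1 came to 255 CPM (exact interval 241 to 269).

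**Figure D1:**
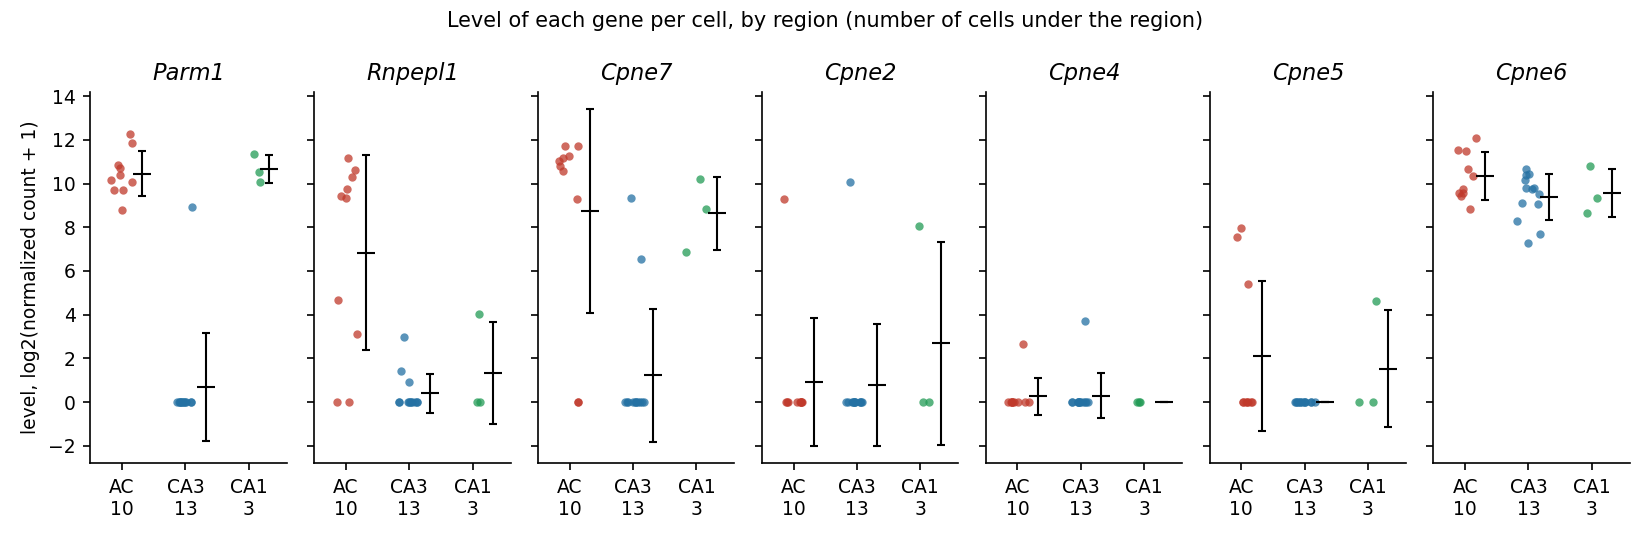
Level of each of the 7 genes, log2(normalized count + 1), in each AC (red), CA3 (blue) and CA1 (green) cell, with the mean and SD over cells in black and the number of cells under each region. Parm1 lies at 8.79 or higher in all 10 AC cells and at 0 in all CA3 cells but N29, while Cpne6 has reads in every cell and its groups overlap.

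Of the 7 genes, 4 were detected in 10 or more of the 23 cells. Of these 4, 3 were called higher in AC, where 15.4% of all genes were, and 0 were called higher in CA3, where 48.1% of all genes were. Nothing can be read from these counts for Parm1, Cpne7 and Rnpepl1, since that contrast chose them and since they passed the minimum of 10 cells mainly through their AC cells. In the order of differences Kit, a receptor tyrosine kinase, was at place 1 with 11.40 and Sv2c, a synaptic vesicle protein, at place 3 with 9.75. Parm1 was at place 2, Cpne7 at place 4 with 7.53 and Rnpepl1 at place 5 with 6.43. The genes just beyond were Gpr155 with 5.99, Srsf12 with 5.11 and Jam2 with 5.06, so there was no wide gap after Rnpepl1.

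**Figure D2:**
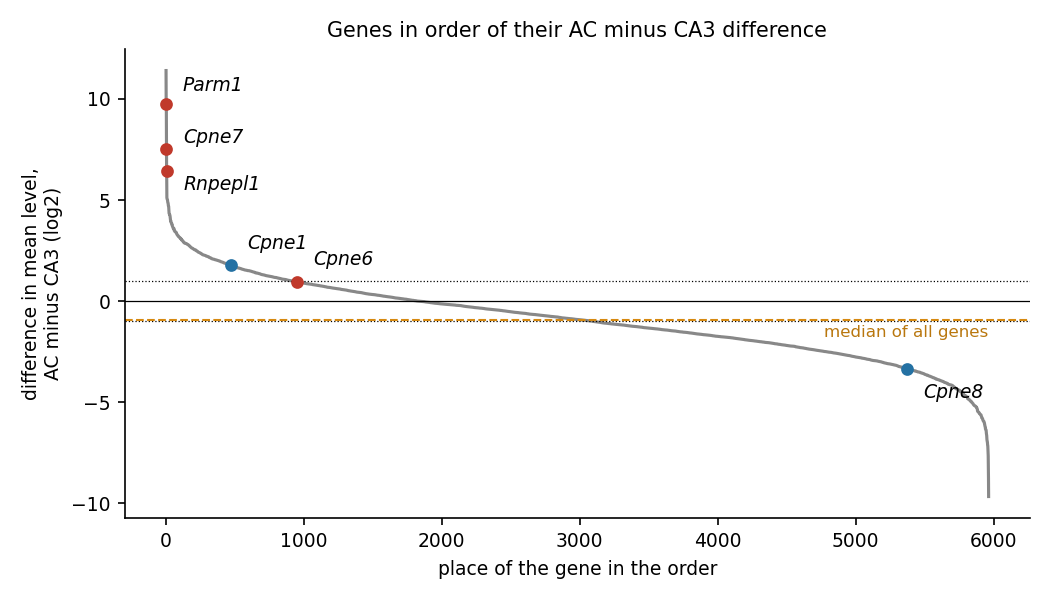
Difference in mean level between AC and CA3 (log2, AC minus CA3) of the 5964 genes detected in 10 or more cells, in order from the highest. Red points mark Parm1, Cpne7, Rnpepl1 and Cpne6, blue points mark Cpne1 and Cpne8, dotted lines mark 1 and -1 and the dashed line marks the median of -0.91; Parm1 lies at 9.76 and Cpne8 at -3.35.

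Parm1, Cpne7 and Rnpepl1 all had reads in 7 of 10 AC cells. With Parm1 in 10 of these cells and Cpne7 and Rnpepl1 in 8 each, such a count follows from the single shares, so nothing is read from it. The AC cells without Cpne7, N8 and N42, had 3270 and 4120 reads on Parm1, and the latter was the highest number of any AC cell used here. In CA3 no cell had reads on 2 of the 3 genes: N29 had Parm1, N28 and N39 had Cpne7, and N33, N38 and N40 had Rnpepl1. In CA1, 3 of 3 cells held Parm1 and Cpne7 together, and 1 of these also held Rnpepl1.

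Within the 10 AC cells the levels of Parm1 and Rnpepl1 had a Spearman correlation of -0.58, those of Parm1 and Cpne7 one of -0.43 and those of Cpne7 and Rnpepl1 one of 0.34. Rnpepl1 and Npy had a correlation of -0.71, Parm1 and Npy one of 0.56 and Cpne7 and Npy one of -0.17. For Cpne7 and Npy Pearson's r was -0.60. The cells share scaling and differ in depth, and the levels at 0 are tied. The correlation with the total number of reads was 0.14 for Parm1, -0.15 for Rnpepl1 and 0.13 for Cpne7, for which Pearson's r was -0.56.

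Over the 23 AC and CA3 cells, the genes whose levels ran most alike with Parm1 were Kit, Sv2c and C1qtnf4, with Spearman correlations of 0.91, 0.84 and 0.81. For Cpne7 these were Camkk1, which encodes a kinase of calmodulin-dependent kinases, with 0.72, Jund with 0.72 and Ddx5 with 0.70. For Rnpepl1 these were Srsf12 with 0.85, Sptbn4, which encodes a spectrin of the axon initial segment, with 0.82, and Gm11175 with 0.80. With the regions pooled, a gene that is higher in AC ranks high by that alone. Over the 10 AC cells alone the leading genes were others: Slc25a22, a mitochondrial glutamate carrier, Akap11 and Atp5j for Parm1, with 0.89, 0.88 and 0.85, Ivd, Ddx5 and Zbed5 for Cpne7, with 0.95, 0.91 and 0.90, and Puf60, Cxx1a and Rims3 for Rnpepl1, with 0.98, 0.96 and 0.96. These were picked as the highest of all tested genes over only 10 cells, so nothing is read from the size of their correlations. Ddx5, an RNA helicase, was the one name on both lists of the same gene. The 10 AC cells are among the 23, so the 2 lists are not independent.

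Cpne6 (chr14:55510445-55517431, plus strand) differed from Cpne7 in that it had reads in 10 of 10 AC cells (exact interval 69.2 to 100%), 13 of 13 CA3 cells (75.3 to 100%) and 3 of 3 CA1 cells (29.2 to 100%). Reads ran from 399 to 4187 in AC with a median of 1200, and from 203 to 2530 in CA3 with a median of 848. The CA1 cells had 68, 593 and 691 reads. Mean levels were 10.34 ± 1.08 in AC, 9.37 ± 1.06 in CA3 and 9.58 ± 1.09 in CA1. The difference of 0.96 between AC and CA3 was smaller than the SD of either region, and levels from 8.86 to 12.08 in AC overlapped those from 7.27 to 10.64 in CA3. Summed reads came to 493 CPM in AC (exact interval 485 to 500), to 237 CPM in CA3 (233 to 241) and to 269 CPM in CA1 (254 to 283). Relative to the median of all genes tested, the difference of Cpne6 was 1.87, and it took place 950 in the order towards AC. It reached the size of a call with scran factors from the 23 AC and CA3 cells alone, at 1.08, and in the log2 ratio of summed CPM, at 1.06. With 1 cell left out at a time it ran from 0.77 to 1.13 and was at least 1 for 9 of the 23 cells. It was smaller as a difference of medians over cells, at 0.32, and over all labelled cells, at 0.48.

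Cpne5 (chr17:29155556-29238167, minus strand) had reads in 3 of 10 AC cells, with 249 in N3X, 237 in N46 and 33 in N7 (exact interval 6.67 to 65.2%). None of the 13 CA3 cells had a read, which allows a share of up to 24.7% of cells by the exact interval. At 15.2 CPM the summed AC reads were at least 248-fold higher than the 0.0614 CPM that 3 reads over all CA3 reads would give. Cell N3X held 47.98% of these AC reads, and without it the bound was 147-fold. AC cells had a mean level of 2.10 ± 3.43, and the median cell of both regions had no read. In CA1, N1 had 4 reads. Cpne5 was detected in too few cells to be among the genes tested.

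Cpne2 (chr8:94532990-94570531, plus strand) and Cpne4 (chr9:104547286-105034544, plus strand) were found in 1 cell of each region. For Cpne2 these were N43 of AC with 596 reads and N29 of CA3 with 1069. Levels averaged 0.93 ± 2.94 in AC and 0.77 ± 2.79 in CA3, and their difference of 0.15 rested on 1 cell in each region. In CA1, N1 had 45 Cpne2 reads. For Cpne4, N46 of AC had 5 reads and N26 of CA3 had 8, and no CA1 cell had any. The Cpne4 levels of 0.27 ± 0.84 and 0.29 ± 1.03 differed by -0.02.

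The other copines were read from the same table. Cpne8 (chr15:90487482-90679432, minus strand) went the other way from Cpne7. Reads were found in 12 of 13 CA3 cells, from 14 to 1642, and in 7 of 10 AC cells, from 2 to 355. AC cells averaged a level of 4.13 ± 3.73 and CA3 cells one of 7.47 ± 2.94, which gives a difference of -3.35, or -2.44 relative to the median of all genes. Summed reads came to 26.8 CPM in AC (exact interval 25.1 to 28.6) and 131 CPM in CA3 (127 to 134), which is 4.87-fold higher in CA3. In CA3, 10 of 13 cells had Cpne8 without Cpne7, and in AC 1 of 10 did. Cells N28 and N39, the 2 CA3 cells with Cpne7, also held Cpne8, with 69 and 329 reads.

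Cpne1 had reads in 5 of 10 AC cells, from 22 to 2113, and in 6 of 13 CA3 cells, from 1 to 500. Levels averaged 4.26 ± 4.82 in AC against 2.49 ± 3.28 in CA3. This difference of 1.77 was of the size of a call and smaller than the SD of either region. Cell N44 held 47.8% of the Cpne1 reads of AC, and without it the difference was 1.00. Cpne3 had 1 read in CA3, none in AC and 329 reads in CA1 cell N1. Cpne9 had 2 reads in AC cell N46 and none in the other AC, CA3 and CA1 cells. Of the 2 copines outside the chosen set that were tested, 1 was called higher in AC, against 15.4% of all genes, and 1 higher in CA3, against 48.1%.

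To compare copines with each other, reads were divided by the length of the annotated exons of each gene and set against the sum over all 9 copines of the cell. Cpne6 took the largest share in 6 of 10 AC cells and Cpne7 in the other 4. In CA3, Cpne6 took the largest share in 9 of 13 cells, Cpne8 in N27 and N30 with 83.4% and 61.2%, Cpne7 in N39 with 64.5% and Cpne2 in N29 with 87.5%. The median share of Cpne6 was 47.3% in AC and 72.4% in CA3. The median share of Cpne7 was 34.2% in AC and 0% in CA3, and that of Cpne8 was 0.379% in AC and 24.1% in CA3. With the length of the longest coding transcript in place of all exons, an alternative chosen after the data were seen, Cpne6 and Cpne7 each led in 5 AC cells, and the number of CA3 cells led by each stayed at 9 and 1.

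The CA1 cells were each led by another copine. Cpne3 led in N1 with 57.5%, Cpne7 in N2X with 55.6% and Cpne6 in N6 with 79.0%. Cell N1, the only CA1 cell with reads on Cpne3, Cpne2 and Cpne5, had the fewest reads of the 26 cells, 601781, and 648 CPM on pyramidal cell and 882 CPM on astrocyte markers, and their part in its copine reads was not tested. The number of copines with reads per cell ran from 2 to 6 in AC, from 2 to 4 in CA3 and from 3 to 5 in CA1. Reads of all copines together came to a median of 1010 CPM per cell in AC (290 to 2369 CPM), 389 CPM in CA3 (133 to 901 CPM) and 738 CPM in CA1 (561 to 774 CPM). The CA3 cell that carried Parm1, N29, was also the one with Cpne2 and the only CA3 cell without Cpne8.

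**Figure D3:**
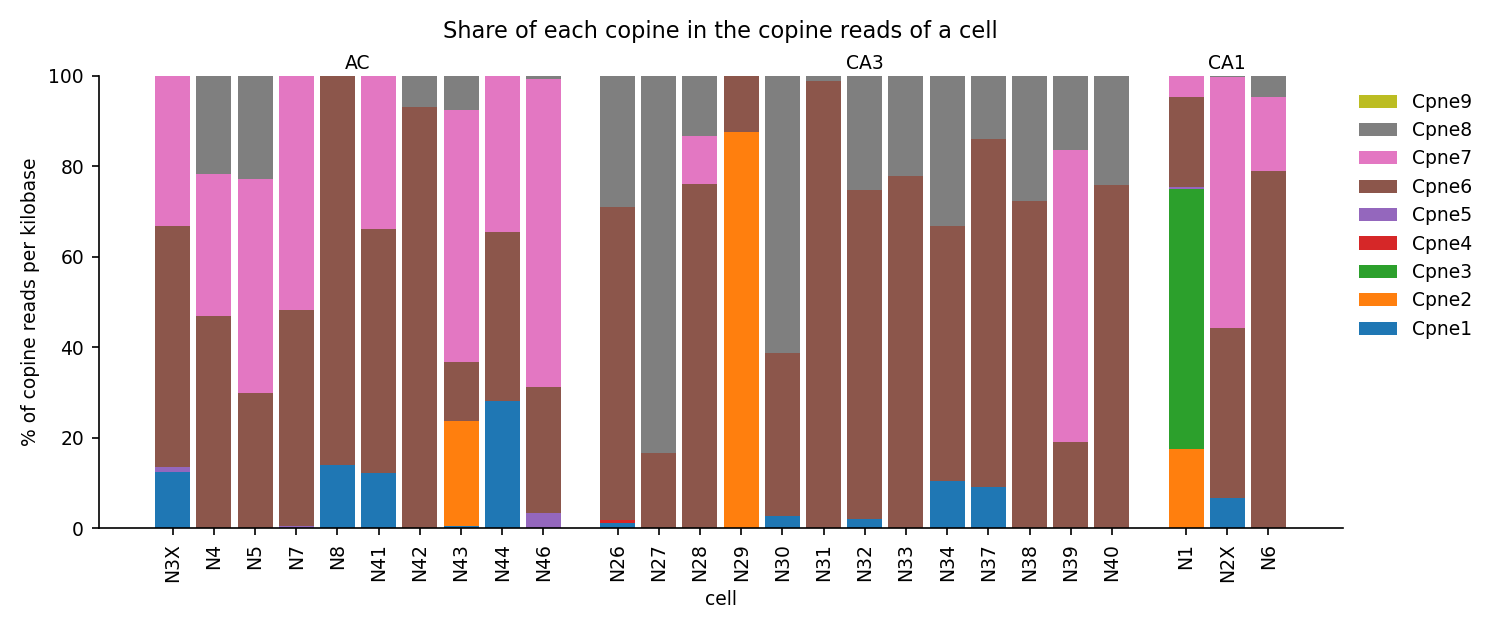
Share of each copine (colours) in the copine reads per kilobase of exon of a cell, in percent, for the 10 AC, 13 CA3 and 3 CA1 cells. Cpne7 (pink) has a part in 8 AC cells, 2 CA3 cells and 3 CA1 cells, and Cpne8 (grey) is above 20% in 2 AC cells and in 8 CA3 cells.

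How far copine transcripts are alike bears on how well their reads can be told apart. Local alignment of the longest coding transcripts gave 61.1 to 75.2% identity over the 36 pairs of copines. The longest run of bases that a pair shared was 31, for Cpne5 and Cpne6, and the runs of Cpne7 with the other copines were from 12 to 21 bases. Rnpepl1 and Rnpep, its nearest relative in name, had an identity of 62.3% and shared at most 23 bases.

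Cpne7 lies within the span of Gm20388, a gene model on the same strand (chr8:119910841-124345722). Only the spans were compared, and whether exons of the 2 genes overlap was not examined. Gm20388 had 840 reads in AC and 831 in CA3, a level difference of -0.96. Of 8 genes with reads within 100 kb of Cpne7, 5 were tested, of which 0 were called higher in AC and 3 higher in CA3, with differences from -2.68 to 0.48. Ankrd11, a chromatin regulator, was the highest of these and Cdk10 the lowest. Of 6 such genes around Rnpepl1, 3 were tested, of which 0 were called higher in AC and 2 higher in CA3, with differences from -2.14 for Capn10, a calpain, to 0.58 for Kif1a, a kinesin that carries synaptic vesicle precursors. Parm1 had no gene with reads within 100 kb. Of all genes, 15.4% were called higher in AC and 48.1% higher in CA3. Among the neighbours of Cpne7 with too few cells to be tested, Spata2l had 3120 reads in 5 AC cells and 1155 in 3 CA3 cells, a difference of 1.92, and Spg7 had 3617 and 1052 reads in 4 cells of each region, a difference of 1.28.

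The M1 aminopeptidases are the family of Rnpepl1, and 10 of them apart from Rnpepl1 are in the table. Of these, 2 had enough cells to be tested: Lta4h, which encodes leukotriene A4 hydrolase, was called higher in CA3, as were 48.1% of all genes, with a difference of -1.78, and Npepps, a cytosolic aminopeptidase, stood at -0.99. The summed CPM of Lta4h went the other way, with 96.1 in AC and 78.6 in CA3. Among those with too few cells, 2010111I01Rik, named Aopep in later annotations, had 7396 reads from 5 of the 10 AC cells against 14 from 3 of the 13 CA3 cells, a level difference of 4.41. It had 204 to 488 reads in all 3 CA1 cells. Their mean level of 9.77 lay above both the 4.85 of AC and the 0.44 of CA3. Lnpep, which encodes an aminopeptidase of insulin-responsive vesicles, had reads in 5 AC cells and 2 CA3 cells, a difference of 3.29, and none in CA1. Rnpep had reads in 3 AC and 5 CA3 cells with a difference of -0.54, while its summed CPM went the other way, with 110 in AC and 35.4 in CA3. Anpep and Enpep had no read in these 26 cells. Cell N44 held the most AC reads of Rnpepl1, 2010111I01Rik, Rnpep and Lnpep alike, with 2092, 4715, 2689 and 1185, a point noted after the values were seen.

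Steroid hormone receptors were looked at because Parm1 is named for androgens. Nr3c1, the glucocorticoid receptor, had reads in 6 AC and 6 CA3 cells and a difference of 2.10, counted as higher in AC, with 62.8% of its AC reads in N46. N29, the CA3 cell with Parm1, held 62.0% of the CA3 reads of Pgr, the progesterone receptor, which was found in 3 AC and 3 CA3 cells. Esr1 and Esr2, the oestrogen receptors, had no read in these 26 cells.

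Reads of other cell types differed between the regions. The 5 astrocyte markers summed to 0 to 1089 CPM in AC with a median of 1.46 and 4 of 10 cells above 10 CPM, to 0 in 12 of 13 CA3 cells and 0.421 CPM in the last, and to 82.9 to 882 CPM in CA1. Aqp4, the astrocyte water channel, was at 0 in all of them. In the 6 AC cells with an astrocyte sum of at most 10 CPM, Parm1 had 526 to 4120 reads in 6 of 6 cells, Rnpepl1 had reads in 5 and Cpne7 in 4. Microglia markers summed to 0 to 3707 CPM in AC and 0 to 1864 CPM in CA3, oligodendrocyte markers to 0 to 367 and 0 to 1043 CPM, pyramidal cell markers to 0.229 to 190 and 0 to 383 CPM (0 to 648 CPM in CA1), and endothelial markers to at most 1.17 and 33.7 CPM. Mog stood at 0 for oligodendrocytes in every cell used here, as did Cldn5 and Flt1 for endothelium. AC cell N46 had the highest astrocyte sum and 2740 CPM on microglia markers, and it was the AC cell with reads on Cpne4 and Cpne9. The part of these other reads in the values of the 7 genes and the other copines was not tested.

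With every cell thinned to 601781 reads, Parm1 kept 10 AC, 1 CA3 and 3 CA1 cells with reads and Rnpepl1 kept 8 AC cells, while its CA3 cells went from 3 to 1. Cpne7 kept 8 AC cells, and Cpne8 went from 7 to 6. The shares of AC cells with Parm1, Rnpepl1 and Cpne7 were thus the same at this depth.

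Over all labelled columns Parm1, Rnpepl1 and Cpne7 were found in smaller shares of AC cells. Of 19 AC cells, 12 had Parm1, 10 had Rnpepl1 and 9 had Cpne7, and of 21 CA3 cells 2, 6 and 2 did. The added AC cells with Parm1 were N47, with 7432 reads, more than any of the 10 AC cells above, and N51, with 45. The added CA3 cells with Rnpepl1 were N18, N15 and N23, with 89, 27 and 19 reads at 257, 118 and 46.5 CPM, which lies within the range of 0 to 635 CPM in the 10 AC cells. AC cells N45 and N48 had no Parm1 read among 5265115 and 5135021 reads, which are among the higher totals of the table. Cpne5 was found in 7 of 19 AC cells, with 1442 reads in N47, 871 in N51, 56 in N50 and 31 in N45, and in 0 of 21 CA3 cells. Cpne6 had reads in 13 of 19 AC and 15 of 21 CA3 cells. Totals in the added columns went down to 40934 reads in AC and 111958 reads in CA3. The columns N4 and N4X of AC correlated at r = 0.995, against at most 0.724 in 399 other pairs of the same region, so they were taken as the same cell and counted as 1, with N4 in use.

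The dentate gyrus cells had no read on Parm1, Rnpepl1, Cpne7, Cpne2 or Cpne5. Cell N11 had 202 reads on Cpne6 and 2 on Cpne4, and N12 had none on any copine. The NPY-negative cell of CA3, N16, had 70 reads on Parm1 and 29 on Rnpepl1, at 240 and 99.4 CPM, and no copine reads. Its total was 291745 reads.

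**Figure D4:**
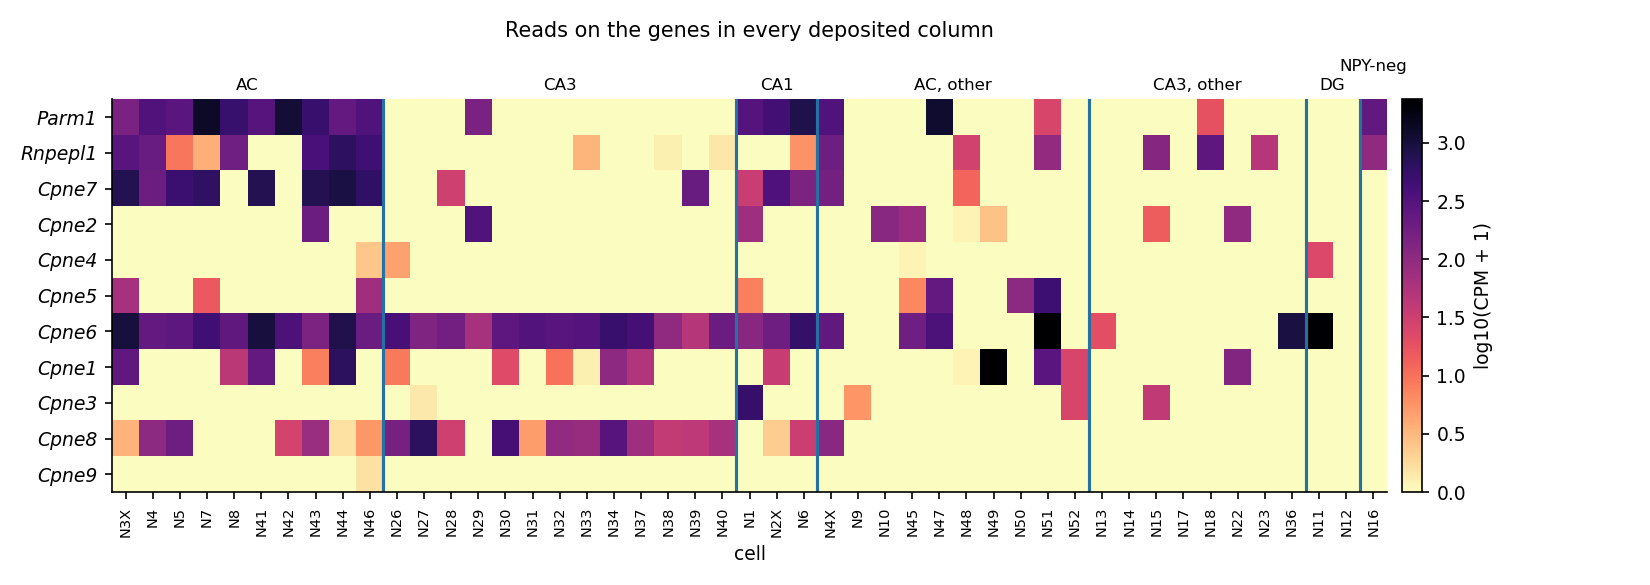
Reads on the 7 genes and the other 4 copines in all 47 columns, as log10(CPM + 1), with the 26 cells used here at the left, the other labelled AC and CA3 columns next and the dentate gyrus (DG) and NPY-negative cells at the right. Among these 26 cells Parm1 is dark in 10 AC and 3 CA1 cells and in N29, with N4X, N47 and N16 dark beyond them, and the row of Cpne6 is filled across the 26 cells.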

How the data were processed

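Single-cell cDNA was sequenced after Nextera XT library preparation, with 1 library per patched neuron. The authors deposited 1 table of read counts for 47 cells and 22800 gene symbols, whole numbers with no normalization. The paper gives Trimmomatic and Flexbar for trimming, STAR with GRCm38 for alignment and HTSeq for counting. Identifiers were turned into symbols with the Ensembl annotation, and symbols that occurred repeatedly were averaged. The submitters' processing notes name featureCounts in place of HTSeq. The paper dates the reference and annotation and lists strand options without naming the one used. Tool versions are not given in the sources used here.

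The 7 genes, the 26 cells, the gene lists and the alternatives were chosen with earlier results of these data known. The 10 AC and 13 CA3 cells are those that such earlier work had matched to the cells drawn in the paper, and this match was not repeated. The paper drew more CA3 cells than these 13, and the CA3 columns outside them include N15, N18 and N23. The genes named were the 7 members, the other copines, M1 aminopeptidases and steroid receptors. Some genes of the fixed lists are not reported here. To these came the 3 genes most alike in Spearman correlation over 23 cells and over 10 AC cells, the 3 next in the order and the neighbours within 100 kb. Kit and Sv2c were named as the genes set aside. Counts were divided by size factors of scran 1.30.0 (R 4.3.3, pools of 10 and 20 cells), with a pseudocount of 1. Alternatives were TMM factors of edgeR 4.0.16, poscounts factors of DESeq2 1.42.0, totals, scran over 23 cells, pseudocounts of 10 and 0.1, all labelled cells, N4X for N4, thinning (seed 1), leaving out each cell, medians, summed CPM, other limits on detection, and calls relative to the median gene. Leaving out the cell with the most reads from ratios of summed CPM, and each cell from the Cpne1 and Cpne8 differences, was added after the data were seen. Neither edgeR nor DESeq2 was used for a test. Coordinates and transcripts came from GENCODE vM21 and promoter windows from RefSeq on GRCm38.p6. Pairs of transcripts were aligned with Biopython 1.88. The steps were tested on simulated data. Python 3.11.15, scipy 1.17.1, pandas 2.3.3, numpy 2.4.6 and matplotlib 3.10.9 served for all else.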

Additional observations from a re-analysis of the deposited data

Results flagged for a closer look

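Among the levels of 10 genes examined in the 10 AC cells by Dixon's test 3 genes had a cell far above the rest. These were Cpne2 in N43 with a level of 9.28, Cpne4 in N46 with 2.66 and Cpne9 in N46 with 1.65. In each case the cell was the single AC cell with reads on the gene. With all other cells tied at 0 the test passes its limit whatever the value, so nothing is read from it. Outside the comparison of AC with CA3, the NPY-negative cell of CA3, N16, had 70 reads on Parm1 and 29 on Rnpepl1, and cell N11 of the dentate gyrus had 202 reads on Cpne6.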

How the results depend on the processing

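No alternative turned the direction of the Parm1, Rnpepl1 or Cpne7 difference between AC and CA3. The Parm1 difference of 9.76 became 6.71 and 12.83 with pseudocounts of 10 and 0.1, 5.56 over all labelled cells, 7.44 after thinning and 5.64 as the log2 ratio of summed CPM. The Rnpepl1 difference of 6.43 became 2.82 over all labelled cells and 9.80 as the log2 ratio of summed CPM. It was 4.25 and 8.43 with the pseudocounts of 10 and 0.1, 4.79 after thinning and 9.37 by medians. The Cpne7 difference of 7.53 became 3.99 over all labelled cells and 3.79 as the log2 ratio of summed CPM. It was 5.38 and 9.68 with the pseudocounts of 10 and 0.1, 5.86 after thinning and 10.90 by medians. The Cpne6 difference of 0.96 became 0.48 over all labelled cells and 0.32 by medians. The Cpne5 difference of 2.10 became 7.96 as the log2 ratio of summed CPM, with CA3 set to 3 reads, 1.14 and 3.09 with the pseudocounts of 10 and 0.1, 1.47 after thinning and 0 by medians. With each AC or CA3 cell left out in turn, the difference of Parm1 ran from 9.56 to 10.45, Rnpepl1 from 5.95 to 7.19, Cpne7 from 7.20 to 8.50, Cpne6 from 0.77 to 1.13, Cpne5 from 1.44 to 2.33, Cpne2 from -0.77 to 0.93 and Cpne4 from -0.29 to 0.27. The Cpne2 difference turned negative without N43, and also as the log2 ratio of summed CPM, at -0.32. That of Cpne4 lay near 0, and its sign changed with which cell was left out. The number of genes called higher in AC was 916, and it became 402 over all labelled cells, 1854 with no filter on detection and 1745 relative to the median gene. The number called higher in CA3 was 2867, and it became 4465 and 1765 in the latter 2 settings. With at least 10 reads required, the share of CA3 cells with Rnpepl1 and of AC and CA3 cells with Cpne4 became 0%. The cause of these shifts was not tested beyond what the settings themselves change. No paired analysis was possible because each sample is 1 cell, no test was made and the labels pair no cells. The values rest on 10, 13 and 3 cells with no link to the 8 mice.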
